A study of Mus musculus with 2 samples.

Results

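Mesothelial cells form the single cell layer that covers the epididymal fat pad and the other organs of the body cavity. They share traits with epithelium (keratins, cell junctions, an apical coat of glycoproteins) and with mesenchyme (vimentin, matrix genes), and carry the transcription factor Wt1. The layer secretes lubricants, complement proteins and protease inhibitors, and in visceral fat it borders the adipocytes and their progenitors directly. Here the mesothelial cells were taken from a single-cell RNA dataset of the stromal vascular fraction, that is, digested fat without its mature adipocytes. The cells were chosen by measured values. A barcode first had to hold at least 1500 UMIs (unique molecular identifiers, each standing for 1 captured transcript) from no fewer than 500 genes, with no more than 15% of them mitochondrial. It also needed at least 3 UMIs of Msln and Upk3b together, at least 2 UMIs of the keratins Krt19, Krt8 and Krt18 together, and less than 15 UMIs of the macrophage genes C1qa, C1qb and C1qc per 10000 of its UMIs (CP10k). This gate kept 72 cells among 21117 barcodes that passed the first 3 limits, 33 in the knockout library and 39 in the wild-type library.

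The mice were fed a high-fat diet for 10 weeks and were either wild type or conditionally lacked Camk2d in myeloid cells, the genotype called knockout below. Camk2d encodes a subunit of calcium/calmodulin-dependent protein kinase II. Each genotype was represented by 1 library of epididymal white adipose tissue, so a difference between the libraries could not be separated from a difference between animals or preparations, and no test was made. The Cre driver, the deleted exons, and the number, strain, age and sex of the animals are not given in the sources used here, and no chow-fed group was analysed here. One free-text field of both samples names embryonic hindlimb instead of adipose tissue. Intervals are exact 95% intervals (Poisson for levels, conditional for ratios, Clopper-Pearson for shares) and cover counting error only.

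The knockout library held 10631 barcodes and 87015918 UMIs, and the wild-type library 15555 barcodes and 75436677 UMIs. Barcodes that passed the filter were deeper in the knockout library, with a median of 9652 UMIs against 3799. The mesothelial cells had 2864 to 50047 UMIs (median 11692) in the knockout library and 2335 to 27983 (median 7343) in the wild-type library, 484693 and 353042 UMIs in all. The libraries had 48 barcode sequences in common, of which 0 belonged to mesothelial cells. No mesothelial cell reached a Scrublet doublet score of 0.25, the highest being 0.185 and 0.197.

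The gate genes describe the cells but support nothing, since they chose them. Levels are given as CPM, the UMIs of a gene per 1000000 UMIs summed over the mesothelial cells of a library. Upk3b, a uroplakin of the apical membrane, had 1745 CPM (1630 to 1867) in knockout and 2042 CPM (1896 to 2197) in wild-type cells, against 0.82 and 3.50 CPM in all other barcodes. Msln, the surface glycoprotein mesothelin, had 569 CPM (504 to 641) and 782 CPM (692 to 880), and Krt19 had 662 CPM (592 to 739) and 753 CPM (666 to 850). Krt8 stood at 204 and 286 CPM and its partner Krt18 at 202 and 445 CPM. Krt18 was 1.14 lower on the log2 scale in the knockout library, a value that came to -0.59 without the cell with the most Krt18 UMIs. In the mm10 build, Upk3b lies on chromosome 5 (136038496 to 136046487, plus strand), Msln on chromosome 17 (25748613 to 25754378, minus strand) and Krt19 on chromosome 11 (100140810 to 100148665, minus strand).

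The label could be set against genes that the gate did not use. Their list was chosen with earlier results of these data known, so the comparison is a description and not an independent check. Of 22 listed mesothelial genes, 20 were detected with a mean level of at least 10 CPM, and each of these 20 was higher in the mesothelial cells than in other barcodes of both libraries. Their sum was 8793 and 8823 CPM, against 523 and 521 CPM in other barcodes. Calb2 (calretinin) and Sbspon had no UMI in any of the 72 cells, which allows up to 6.19 CPM in knockout and 8.50 CPM in wild-type cells (3 UMIs). Wt1 stood at 316 CPM (268 to 370) and 283 CPM (230 to 345), while other barcodes had 61.4 and 28.9 CPM. Pdgfra-positive progenitors (at least 2 Pdgfra UMIs and none of Msln or Upk3b) also carried 113 and 77.1 CPM of Wt1. Muc16, the membrane mucin CA125 that binds mesothelin, had 493 CPM (433 to 560) and 442 CPM (375 to 517), against 0.19 and 1.39 CPM elsewhere.

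To show the sequence beside the genes that mark the layer, the 250 bases before the start are given for Upk3b and Muc16, the gate's leading gene and the mucin outside it, both from RefSeq (GRCm38.p6) and free of annotated exons. Capitals mark the core recognised by TEAD transcription factors (GGAATG, or CATTCC on the other strand), which in Upk3b begins 241 bases before the start. The Upk3b window is chr5:136038246-136038495 on the plus strand and the Muc16 window is chr9:18674604-18674853 on the minus strand. No match was found in the Muc16 window.
Upk3b: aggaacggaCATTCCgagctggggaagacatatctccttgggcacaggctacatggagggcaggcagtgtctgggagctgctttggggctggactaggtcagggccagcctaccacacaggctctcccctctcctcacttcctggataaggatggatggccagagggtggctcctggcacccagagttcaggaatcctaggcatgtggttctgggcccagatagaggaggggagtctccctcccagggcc
Muc16: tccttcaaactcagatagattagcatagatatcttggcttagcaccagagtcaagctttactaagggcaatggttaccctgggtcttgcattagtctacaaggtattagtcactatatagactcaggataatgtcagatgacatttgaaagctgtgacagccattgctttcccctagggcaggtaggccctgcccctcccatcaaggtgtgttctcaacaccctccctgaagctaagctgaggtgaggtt
Among the 20 genes that marked the mesothelial cells most, described next, 12 had a window in the table, and in 7 of these the window overlapped annotated exons (Lrrn4 and Tmem151a among them). GGAATG was present in 3 of the 12 (Upk3b, Lrrn4, Gpm6a), against 14.4% of 27025 genes. A gene with several windows was counted if any of them held the motif. The motif GCGGGGGCG, recognised by Egr factors and by Wt1, was in 1 of the 12 (Tmem151a), against 2.93% of all. A match describes letters and not a bound site.

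The 20 genes with the highest fold over other barcodes (the lower of the libraries' folds, at 100 CPM or more in both) stood 207-fold to 907-fold above them in the library with the lower fold. They were, in order, Lgals2, Krt19, Upk1b, Msln, Upk3b, Lrp2, Pkhd1l1, Lrrn4, Krt7, Gpm6a, Stmn2, Muc16, Nkain4, Lgals7, Ano1, Clu, Tmem151a, Cxadr, Mroh2a and Slpi. Since the gate set the mesothelial cells apart, these folds are a description. Besides uroplakins and keratins, the set held 2 galectins (Lgals2, Lgals7), the endocytic receptor Lrp2 (megalin), the calcium-activated chloride channel Ano1 and the junction protein Cxadr. Gpm6a, Stmn2 and Nkain4 are better known from neurons. Of the 1206 genes at 100 CPM or more in both libraries, 70 were at least 10-fold above other barcodes. Between the libraries the 17 marking genes outside the gate differed by log2 ratios of -0.52 to 0.46, and 12 of the 17 intervals held 0.

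**Figure D1:**
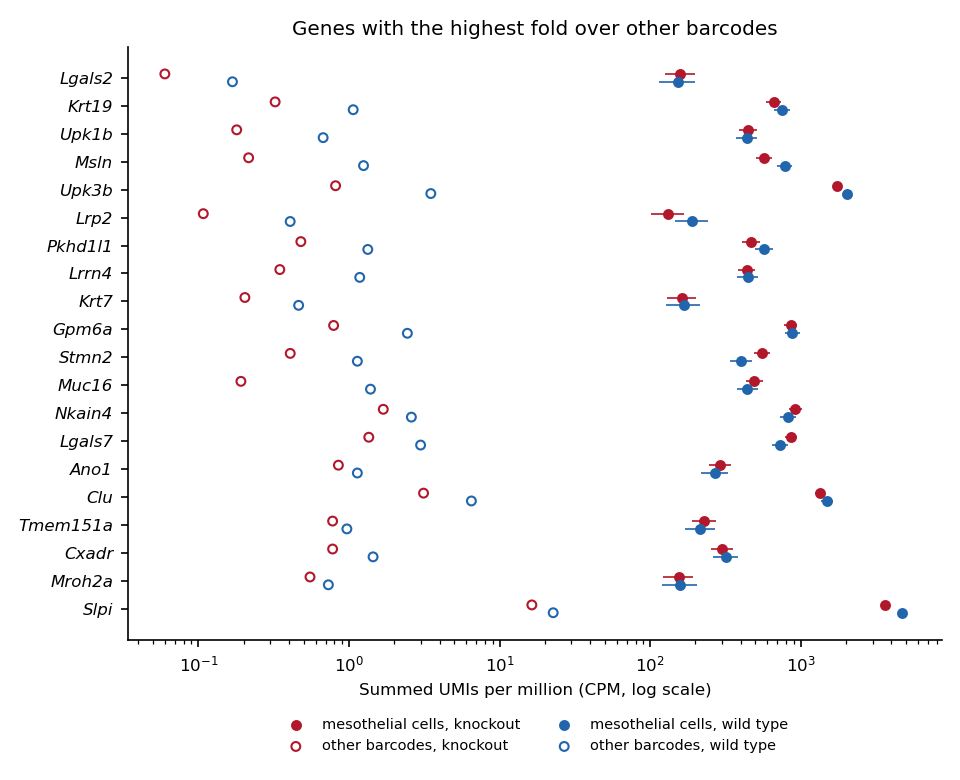
Summed UMIs per 1000000 (CPM, log scale) of the 20 genes with the highest fold over other barcodes; filled points are mesothelial cells with 95% counting intervals and open points are all other barcodes, by library. The filled points of both libraries lie close together and 207-fold or more above the open points.

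Stmn2, a microtubule regulator, was the marking gene with the highest ratio, at 555 CPM in knockout and 402 CPM in wild-type cells (log2 0.46). It was detected in 26 of 33 knockout cells and 18 of 39 wild-type cells, with medians of 3.69 and 0 CP10k. After each cell was thinned to 1500 UMIs, the shares were 48.5% (30.8 to 66.5) and 23.1% (11.1 to 39.3), against 78.8% and 46.2% unthinned. Other barcodes had 0.10% and 0.25% thinned and 0.24% and 0.49% unthinned. Median depths were 11692 and 7343 UMIs in mesothelial cells, and 9641 and 3785.5 in the other barcodes. The thinned intervals of the libraries overlapped. With the gate applied after thinning, which kept 8 and 12 cells, the log2 ratio of Stmn2 was -1.60.

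Single cells varied widely around the summed levels. Upk3b was present in all 72 cells, at 0.86 to 31.4 CP10k (median 19.9) in the knockout and 4.11 to 40.1 CP10k (median 18.7) in the wild-type library. The complement gene C3 was also found in every cell, from 15 to 134 CP10k (median 64.5) and from 15 to 197 CP10k (median 75.7). Slpi, a secreted inhibitor of leukocyte proteases, was spread most unevenly. It ranged from 0 to 140 CP10k with a median of 8.41 in the knockout library, and from 0 to 266 CP10k with a median of 31.5 in the wild-type library. Of the knockout cells 8 of 33 were below 1 CP10k and 11 reached 30 CP10k, and of the wild-type cells 5 of 39 and 22. The ranges of the libraries overlapped for each of these genes.

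**Figure D2:**
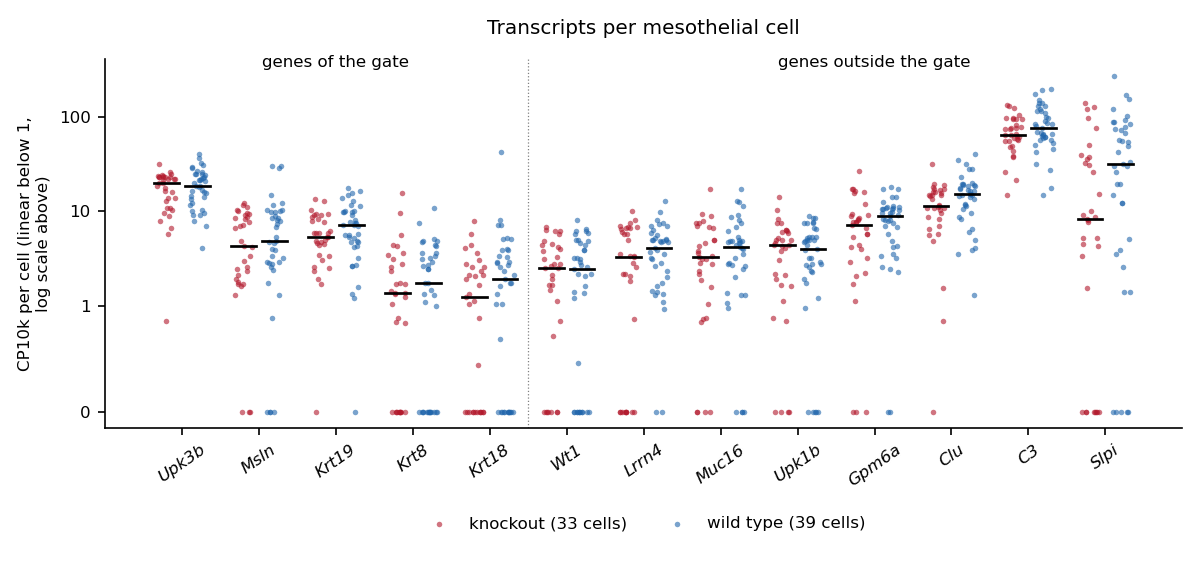
Transcripts per cell (CP10k, linear below 1 and log above) for genes of the gate (left) and genes outside it (right); each point is 1 mesothelial cell and each bar a median, 33 cells from the knockout and 39 from the wild-type library. Upk3b and C3 are present in every cell, while Slpi runs from 0 to 140 and 266 CP10k.

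For each library, the 5 genes were taken whose level across cells followed the summed level of Msln and Upk3b most closely. These values are a description: the genes were picked for the highest values in 1 library, and lower values in the other library show no difference. In 33 knockout cells Spearman's rho was highest for Rarres2 (0.72), Slc16a1 (0.62), Htra1 (0.61), Slc44a2 (0.57) and Chst4 (0.51), and the same genes had 0.46, 0.34, 0.37, 0.19 and 0.25 in 39 wild-type cells. In the wild-type cells it was highest for Trib1 (0.57), Rab18 (0.57), Mgll (0.54), Mmp23 (0.53) and Tex264 (0.51), which had 0.06, 0.06, 0.18, 0.35 and 0.20 in the knockout cells. Cells of a library share its preparation, and the rank correlation of Msln and Upk3b with depth was -0.01 and 0.18. Rarres2, the precursor of the attractant and adipokine chemerin, had the highest value in the knockout cells and kept 0.46 in the wild-type cells.

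Mesothelial cells made up 0.411% (0.283 to 0.577) of the filtered knockout barcodes and 0.298% (0.212 to 0.407) of the wild-type barcodes. The log2 ratio of the shares was 0.46, with a counting interval of -0.25 to 1.17. With at least 3000 UMIs required, the direction turned: 32 and 37 cells gave 0.428% and 0.470%, a log2 ratio of -0.13. Red-cell transcripts were also unequal, haemoglobin and other erythroid genes summing to 3475 and 19518 CPM in other barcodes; among barcodes under 10% haemoglobin the shares were 0.413% and 0.322%.

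Some barcodes lay just outside the gate, more of them in the wild-type library. With enough Msln and Upk3b but under 2 keratin UMIs there were 6 knockout and 11 wild-type barcodes. Of these, 6 and 10 carried UMIs of Upk1b, Muc16, Lrrn4, Gpm6a, Nkain4 or Pkhd1l1, which summed to 3678 and 2469 CPM, against 3629 and 3597 CPM in the members. With 1 or 2 UMIs of Msln and Upk3b there were 1 and 6 barcodes, with 2572 and 368 CPM of the same genes. The C1q limit removed 0 and 2 barcodes. Just inside, 1 knockout and 2 wild-type cells had 3 to 5 UMIs of Msln and Upk3b, and 6 and 5 cells had 2 or 3 keratin UMIs. The single knockout cell with 3 to 5 UMIs had 3 of them and 2 keratin UMIs, and carried only 259 CPM of the 6 genes. It was the top cell of Cxcl1, Inmt and Rnd1, which are described below.

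Markers of other cell types were also found. Of 14 macrophage and monocyte genes, with C1qa, C1qb and C1qc included, 13 were detected. Without C1q their sum was 285 CPM in knockout and 691 CPM in wild-type cells. This was 6.16% and 12% of the level in other barcodes. Fibroblast and progenitor genes summed to 3804 and 5759 CPM (29.4% and 56.5%). Pdgfra stood at 47.5 and 31.2 CPM, whereas Dcn, a matrix proteoglycan, stood at 10687 and 9585 CPM and exceeded the 8254 and 4744 CPM of other barcodes. Erythroid genes summed to 2212 and 6070 CPM (63.6% and 31.1%). Of 13 genes of the epididymal epithelium 12 had no UMI, and Clu (1345 and 1496 CPM) was the exception. Cdh1, Cldn4 and Krt5 had no UMI either, and the endothelial gene Pecam1 had 1 UMI in each library.

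The first check across genotypes is Camk2d itself, which the design removes from myeloid cells and not from mesothelium. It had 31 UMIs in the knockout and 28 UMIs in the wild-type mesothelial cells, or 64.0 CPM (43.5 to 90.8) and 79.3 CPM (52.7 to 115), with a log2 ratio of -0.31 (-1.10 to 0.48). Other barcodes had 70.2 and 73.7 CPM. Detection was 45.5% and 46.2% of cells unthinned, and 6.06% (0.74 to 20.2) and 25.6% (13.0 to 42.1) thinned to 1500 UMIs, against 9.55% and 11.2% thinned and 42.6% and 28.1% unthinned in other barcodes, at the median depths above. The thinned shares rest on 2 and 10 cells. A UMI from the gene's 3′ end need not report the deletion, since the deleted exons are not given.

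Between the libraries, 2297 genes averaged 50 CPM or more with 30 UMIs or more in the library where they were higher. In the knockout library 50 of them (2.18%) stood 2-fold or more above and 61 (2.66%) 2-fold or more below the wild type, and the median log2 ratio was 0.07. With TMM scaling, which moved all ratios by 0.06, the split was 71 higher and 53 lower. With 1 library a group, these are counts of ratios and not of changed genes.

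Among the 12 genes with the highest ratios, Fbxo33, an F-box protein, had the most UMIs. It had 386 CPM (332 to 445) in knockout and 116 CPM (83.3 to 158) in wild-type cells (log2 1.73, 1.24 to 2.26), against 30.2 and 29.1 CPM in other barcodes. It was found in 20 of 33 and 16 of 39 cells. Rnd1, which loosens cell adhesion, had 101 and 17.0 CPM (log2 2.57, 1.35 to 4.09) and was seen in 15 and 5 cells. Its highest level, 8.64 CP10k, was in the knockout cell nearest the gate's limit. Of other barcodes, 3.55% and 0.95% held a Rnd1 UMI after thinning (11.1% and 2.02% unthinned). Gjb5, a connexin of epithelia, had 78.4 and 22.7 CPM (log2 1.79, 0.67 to 3.10) and only 0.12 and 1.14 CPM in other barcodes. Of the 12, 4 were higher in other barcodes of the knockout library than in its mesothelial cells. For scale, leaving out all genes higher in other barcodes kept 1659 of the 2297 genes.

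The other 9 of the 12 had fewer UMIs than Fbxo33. Srxn1, the antioxidant enzyme sulfiredoxin, had 92.8 and 19.8 CPM (log2 2.23). Casp4, an inflammatory caspase, had 144 and 36.8 CPM (1.97). Csrnp1 (1.74), Ier5 (1.58) and the histone demethylase Kdm6b (1.48) are inducible nuclear genes. The neutrophil attractant Cxcl1 had 305 and 96.3 CPM (1.66), yet 86 of its 148 knockout UMIs came from 1 cell, and without that cell the log2 ratio was 0.44. It was the knockout cell nearest the gate's limit, with 3 UMIs of Msln and Upk3b. Inmt, a methyltransferase abundant in fat stroma, had the highest ratio, at 128 and 14.2 CPM (3.18, 1.88 to 4.85). It rested on 62 and 5 UMIs, was 2.01 without that same cell, which held 35 of the 62, and stood at 642 and 216 CPM in other barcodes. Rian, an imprinted long noncoding RNA (1.79), and the secreted Angptl2 (1.48) completed the 12.

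Of the 12 genes with the lowest ratios, 10 were higher in other barcodes of the wild-type library than in its mesothelial cells. With all genes higher in other barcodes left out, 1659 of 2297 genes were kept. Of these, 36 were 2-fold or more higher and 21 were 2-fold or more lower. Lcp1, a leukocyte actin-bundling protein, had 2 and 35 UMIs (4.13 and 99.1 CPM, log2 -4.59, -7.69 to -2.63), and was found in 2 of 33 and 21 of 39 cells. Tyrobp, a myeloid signalling adaptor, had 14.4 and 119 CPM (-3.04), Laptm5 10.3 and 93.5 CPM (-3.18), Cd52 14.4 and 156 CPM (-3.43) and Lsp1 16.5 and 99.1 CPM (-2.59). One wild-type cell, described below for class II genes, held 35 of the 55 Cd52 UMIs and 15 of the 35 Lsp1 UMIs of its library, and without it the ratios were -2.06 and -1.87. The fatty-acid receptor Cd36, which macrophages and endothelium carry, had 16.5 and 144 CPM (-3.13). These leukocyte genes moved in the direction of the macrophage list, whose summed level per cell was 0 to 16.5 CP10k (median 2.88) in the knockout and 0 to 19.4 CP10k (median 7.07) in the wild-type library. The part of macrophage RNA in these ratios was not tested.

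Of the remaining lower genes, Pi16 and Col14a1 are known from fibroblastic progenitors and Ccnd2 encodes cyclin D2. Pi16 had 16.5 and 127 CPM (-2.95), but 35 of its 45 wild-type UMIs came from 1 cell, and without it the ratio was -0.82. Col14a1 had 22.7 and 102 CPM (-2.17, and -1.50 without the top cell) and Ccnd2 had 24.8 and 105 CPM (-2.08). Bdnf, a neurotrophin that other barcodes nearly lacked, had 20.6 CPM (9.89 to 37.9) and 110 CPM (78.6 to 151), a log2 ratio of -2.42 (-3.59 to -1.39) and 0.06 and 0.15 CPM elsewhere. It was found in 6 of 33 and 15 of 39 cells, and without the top cell the ratio was -2.02. Erythroid genes were also lower in the knockout mesothelial cells in summed level, as given above. Their median log2 ratio over 4 members was -1.47, but -0.46 without the top cell of each gene.

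**Figure D3:**
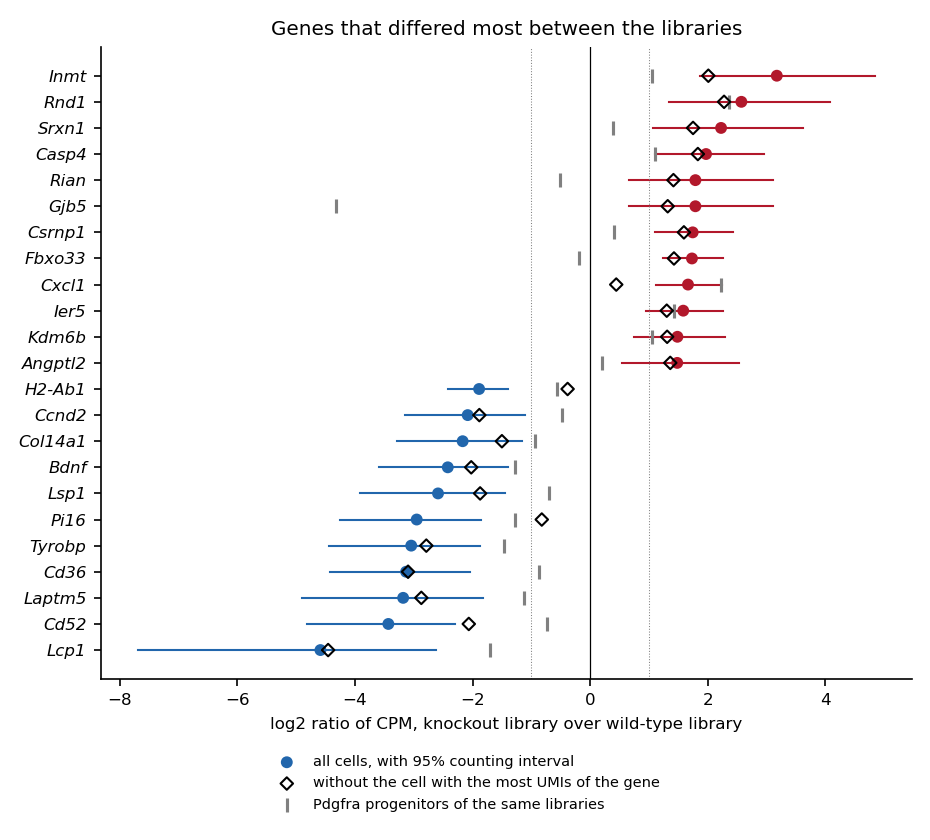
Log2 ratio of CPM, knockout over wild-type library, for the 12 genes with the highest and 11 of the 12 with the lowest ratios; points with bars are all mesothelial cells with 95% counting intervals, diamonds leave out the cell with the most UMIs of the gene, and grey ticks are Pdgfra progenitors. Cxcl1, Pi16 and H2-Ab1 come within 2-fold without 1 cell, and Bdnf does not.

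In class II antigen presentation 1 cell carried much of a difference, but not all of it. H2-Ab1 had 94.9 CPM in knockout and 351 CPM in wild-type cells (log2 -1.89), H2-Aa 116 and 385 CPM (-1.74), H2-Eb1 103 and 323 CPM (-1.65) and the invariant chain Cd74 266 and 773 CPM (-1.54). A single wild-type cell held 373 of that library's 647 UMIs of these 4 genes, 172 CP10k, while the next cell held 53. It also had 26 UMIs of Msln and Upk3b, 44 keratin UMIs, 21683 UMIs in all and a doublet score of 0.161, and its 19.4 CP10k of macrophage genes were the highest of its library. Without it the log2 ratios were -0.38 (-1.02 to 0.26), -0.62 (-1.18 to -0.07), -0.52 (-1.12 to 0.08) and -0.50 (-0.87 to -0.14). The median per cell was 3.14 and 7.26 CP10k. The class I genes went the other way: B2m had 2034 and 1513 CPM (0.43), H2-K1 1814 and 1425 CPM (0.35) and H2-D1 1516 and 1076 CPM (0.49). Other barcodes had the same direction, with B2m at 1220 and 823 CPM, H2-K1 at 894 and 686 CPM and H2-D1 at 1204 and 907 CPM.

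Gene lists were read at a mean of 10 CPM and a 1.5-fold difference. Over all 8533 genes at that level, 1327 (15.6%) were higher and 1720 (20.2%) lower, with a median log2 ratio of -0.04. Of the 20 mesothelial genes, 2 were higher, 0 lower and 18 between, with a median of 0.08. The member with the most UMIs was Efemp1, the matrix protein fibulin-3, at 2106 and 2393 CPM. The 2 higher ones were Myrf, a membrane-bound transcription factor, at 155 and 62.3 CPM (log2 1.31, 0.61 to 2.07), and Flrt1 at 72.2 and 34.0 CPM (1.09, 0.11 to 2.17). Gpm6a (860 and 878 CPM), Lrrn4 (437 and 445 CPM), Upk1b (448 and 439 CPM) and Nkain4 (922 and 824 CPM) lay close together in the libraries. Junction and polarity genes were likewise mostly between (2 higher, 1 lower, 15 between of 18, median 0.15), with the membrane-cytoskeleton linker Ezr at 508 and 516 CPM, and Pkp4 at 24.8 and 11.3 CPM. Occludin (Ocln) and E-cadherin (Cdh1) had no UMI, whereas the mesenchymal cadherin Cdh11 had 338 and 292 CPM.

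The secreted coat and its regulators showed a mixed picture. Of 11 glycocalyx and lubricant genes 5 were higher and 2 lower (median 0.38, and -0.03 without the top cell of each gene). The proteoglycan Sdc4 had 625 and 402 CPM (0.64, 0.34 to 0.93), the lubricant Prg4 64.0 and 22.7 CPM (log2 interval 0.34 to 2.83, and 0.84 without the top cell) and the hyaluronan synthase Has1 101 and 51.0 CPM (0.99, 0.18 to 1.85). The hyaluronan receptor Cd44 had 8.25 and 28.3 CPM (-1.78, -3.91 to 0.01). Prg4 and Has1 were also higher in other barcodes of the knockout library, at 69.5 and 10.2 CPM and at 370 and 163 CPM. In Pdgfra progenitors Has1 had 639 and 402 CPM, but Prg4 went the other way, at 9.52 and 17.0 CPM. Of 13 fibrinolysis and coagulation genes 4 were higher and 2 lower (median 0.46, and 0.15 without the top cell of each gene). Among the higher ones were tissue plasminogen activator, Plat, at 171 and 105 CPM (0.71) and Serpine2 at 11 and 2 UMIs (log2 interval -0.19 to 5.22, and 1.16 without the top cell). S100a10, which helps to bind plasminogen at the surface, had 1277 and 1099 CPM, and the anticoagulant receptor Thbd 483 and 351 CPM (0.46).

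Antimicrobial and complement genes summed to 17034 and 19604 CPM against 4826 and 3044 CPM in other barcodes. Of 14 members 12 were above other barcodes in both libraries; Cd55 was below them in both (68.1 against 148 CPM, 96.3 against 268 CPM) and Saa3 in the knockout library. Between the libraries 1 was higher, 0 lower and 13 between (median -0.19). C3 had 7099 and 8163 CPM (-0.20, -0.27 to -0.13), Slpi 3619 and 4691 CPM (-0.37, -0.47 to -0.28) and Cfb, which pairs with C3 in the alternative pathway, 858 and 949 CPM (-0.14). The inhibitor Serping1 had 1706 and 1861 CPM, and Saa3 was the higher member (9 and 4 UMIs, 0.71, -1.13 to 2.86, and -0.40 without the top cell). Lcn2, which binds bacterial siderophores, had 270 and 346 CPM and only 8.42 and 2.22 CPM in other barcodes.

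Chemokines and cytokines had the highest median of the 21 lists, 1.01 over 12 members, of which 7 were higher and 1 lower. Over members past 50 CPM and 30 UMIs, where 250 (10.9%) of all 2297 genes were higher and 191 (8.32%) lower, it was 0.50 and no longer the highest: NF-kB genes had 0.54, immediate early genes 0.52 and glycocalyx genes 0.51. It was 0.63 without the top cell of each gene. Ccl7 had 27 and 3 UMIs (2.71, 1.01 to 5.08, and 2.01 without the top cell), and Ccl2 had 97.0 and 42.5 CPM (1.19, 0.33 to 2.14). Cxcl10 had 21 UMIs in the knockout library and 0 in the wild-type library, a log2 ratio of 2.35 when the 0 is read as 3 UMIs, with a lower limit of 1.92 (1.69 without the top cell as a ratio). Cxcl2 was the lower one (82.5 and 164 CPM, -0.99). Each of these 4 stood higher in other barcodes of the same library, Ccl7 at 610 and 202 CPM and Ccl2 at 662 and 265 CPM. The alarmin Il33, a mesothelial product in fat, had 194 and 210 CPM (-0.11, -0.57 to 0.35) against 7.72 and 10.2 CPM. Il18 had 167 and 93.5 CPM (0.84, 0.24 to 1.47) against 11.3 and 14.6 CPM.

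Nfkbia and Gbp2, genes induced by inflammatory signals, were about 2-fold higher in the knockout library. Of 11 genes of NF-kB feedback and adhesion 3 were higher and 0 lower (median 0.29), with the inhibitor Nfkbia at 1030 and 513 CPM (1.01, 0.76 to 1.26) and Tnfaip2 at 33.0 and 14.2 CPM (1.22). Of 26 interferon-response genes 6 were higher and 2 lower (median 0.07), with the guanylate-binding proteins Gbp2 at 398 and 193 CPM (1.05, 0.64 to 1.47) and Gbp3 at 70.2 and 19.8 CPM (1.82, 0.63 to 3.24) and the antiviral Ifitm3 at 1663 and 1629 CPM. Nfkbia was higher in the other knockout barcodes too, at 1130 and 737 CPM, and Gbp2 stood at 67.3 and 24.9 CPM there.

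Lists of the mesenchymal side of the layer had medians from -0.32 to 0.16. Past 50 CPM and 30 UMIs, mesenchymal genes had -0.32, matrix genes -0.23, proteases and inhibitors -0.32 and growth factors 0.12. The median of all genes there was 0.07. Of 17 genes of mesenchymal transition and actin 1 was higher and 5 lower (median -0.09), with vimentin, Vim, at 1840 and 1878 CPM and fibronectin, Fn1, at 49.5 and 142 CPM (-1.52, and -0.72 without the top cell). Of 23 collagen and matrix genes 1 was higher and 5 lower (median -0.19). Col3a1 had 1310 and 2175 CPM (-0.73, -0.89 to -0.58) and Sparc 1067 and 1838 CPM (-0.79, -0.95 to -0.62), beside the fibroblast markers that were also lower. Of 10 proteases and inhibitors 1 was higher and 3 lower (median -0.32), with Timp2 at 2606 and 3229 CPM. Of 19 growth factors and signals 1 was higher and 2 lower (median 0.16). Igfbp6 had 3774 and 4597 CPM, and Sfrp1 had 7 and 2 UMIs (1.35, -1.04 to 4.65, and 0.16 without the top cell). Igfbp5, which binds insulin-like growth factors, had 3394 and 2988 CPM against 95.6 and 241 CPM in other barcodes; 605 of its 1645 knockout UMIs came from 1 cell, and without the top cell its log2 ratio turned from 0.18 to -0.34.

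Retinoid genes, which mesothelium is known for, were mostly between (1 higher, 2 lower, 6 between of 9, median -0.15). The retinaldehyde dehydrogenase Aldh1a1 had 613 and 637 CPM, Rarres2 3169 and 4184 CPM (-0.40, -0.50 to -0.30) and Rxra 20 and 4 UMIs (1.86, 0.29 to 3.87). Lipid-handling and adipogenic genes had the lowest median of the 21 lists at 10 CPM, -0.51 over 17 members, of which 2 were higher and 8 lower. Over members past 50 CPM and 30 UMIs it was -0.31 and not the lowest, since mesenchymal, cell cycle and protease genes had -0.32. Fabp4 had 45.4 and 133 CPM (-1.55) and Lpl 97.0 and 218 CPM (-1.17), against 1349 and 1031 CPM and 1098 and 1586 CPM in other barcodes. The inducible factor Cebpb went the other way, at 534 and 246 CPM (1.12), and stood at 628 and 266 CPM in other barcodes. The lipoprotein Apoe had 1129 and 1153 CPM. Where a lipid gene such as Cd36 also belongs to macrophages, the part of their RNA was not tested.

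At 10 CPM the lists of metabolism, calcium signalling and cell cycle lay near the median of all genes, -0.04. Past 50 CPM and 30 UMIs, oxidative phosphorylation had -0.23 and cell cycle -0.32, against 0.07 over all genes. Hypoxia and glycolysis had -0.05 there, and calcium and calmodulin kinase II -0.09. Of 17 oxidative phosphorylation genes 0 were higher and 0 lower (median -0.14), with Cox4i1 at 559 and 688 CPM and Cox5a at -0.52. Of 15 hypoxia and glycolysis genes 1 was higher and 1 lower (median -0.11), with Gapdh at 524 and 564 CPM and Pgk1 at -1.66. Of 13 genes of calcium and calmodulin kinase II signalling 2 were higher and 0 lower (median -0.09), with S100a6 at 4696 and 4693 CPM and the calcineurin regulator Rcan1 at 61.9 and 22.7 CPM (1.45, and 0.39 without the top cell). Of 8 cell cycle genes 2 were higher and 2 lower (median -0.07). Mki67 and Top2a, which mark dividing cells, had 0 and 0 UMIs in the knockout and 1 and 3 UMIs in the wild-type cells. The cell cycle inhibitor Cdkn1a had 398 and 246 CPM (0.69, and 0.05 without the top cell).

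**Figure D4:**
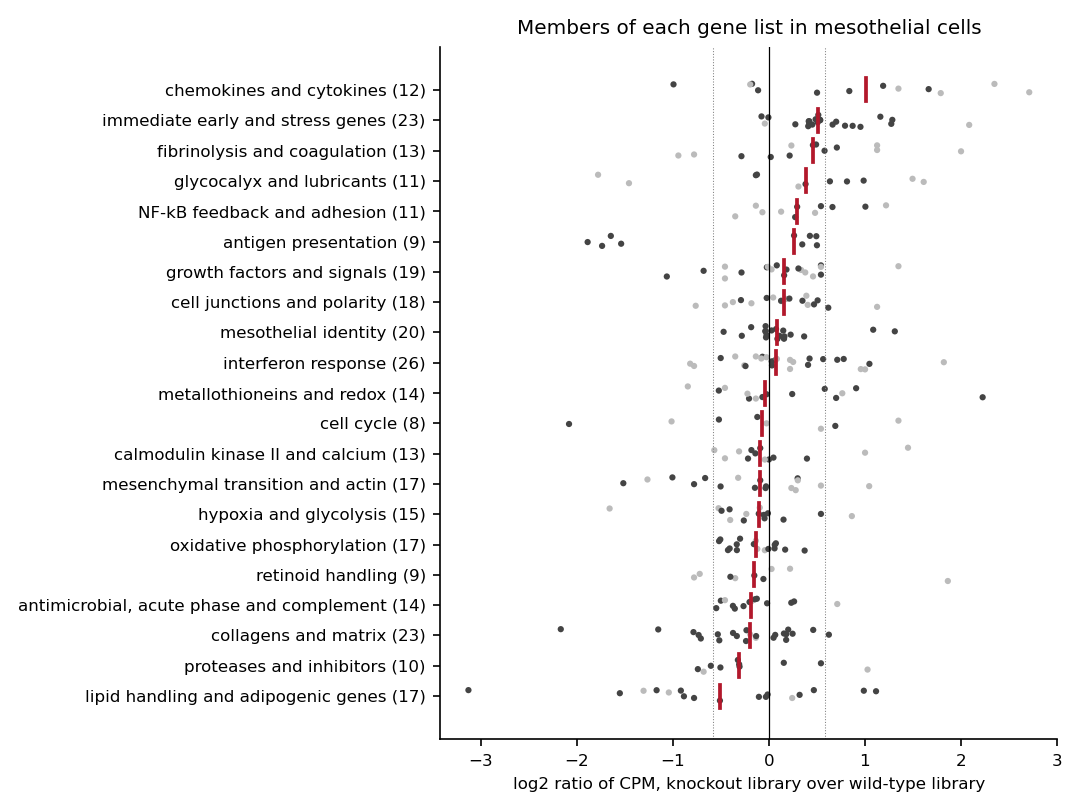
Log2 ratio of CPM, knockout over wild-type library, of the members of each gene list in mesothelial cells (dots, dark where a gene passed the floor of 50 CPM and 30 UMIs) with the list median as a bar. With all dots counted, chemokines have a median of 1.01, lipid-handling genes -0.51 and mesothelial genes 0.08; over the dark dots alone these are 0.50, -0.31 and 0.08.

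Mesothelial cells of the same library differed widely in immediate early and stress genes, transcription factors and heat-shock proteins that cells switch on within minutes of a stimulus, including tissue digestion. Of its 23 members 9 were higher and 0 lower in the knockout library (median 0.52). Fos had 4619 and 3246 CPM (0.51, 0.41 to 0.61), Zfp36 1399 and 578 CPM (1.28, 1.05 to 1.51), the heat-shock gene Hspa1a 456 and 187 CPM (1.29, 0.88 to 1.71) and Fosl1 72.2 and 17.0 CPM (2.09, 0.82 to 3.63, and 1.48 without the top cell). In other barcodes Fos stood at 3340 and 2008 CPM and Zfp36 at 2121 and 806 CPM, so the same direction held there.

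Per cell the list ran from 11.6 to 761 CP10k (median 324) in the knockout and from 19.2 to 594 CP10k (median 62.8) in the wild-type library. At a limit of 150 CP10k, chosen after the values were seen, 20 of 33 knockout cells (60.6%, 42.1 to 77.1) and 16 of 39 wild-type cells (41.0%, 25.6 to 57.9) were above it, and 4 cells of each library lay between 100 and 200. The limit divides a range and does not name a type. Of other barcodes 62.9% and 44.6% were above it, and of Pdgfra progenitors 91.8% and 75.7%. Cells above it had more UMIs (medians 13721.5 against 8861 in the knockout, 10720 against 5865 in the wild-type library) and fewer mitochondrial UMIs (1.96% against 3.40%, 2.23% against 3.93%). The part of depth and RNA quality in this range was not tested.

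**Figure D5:**
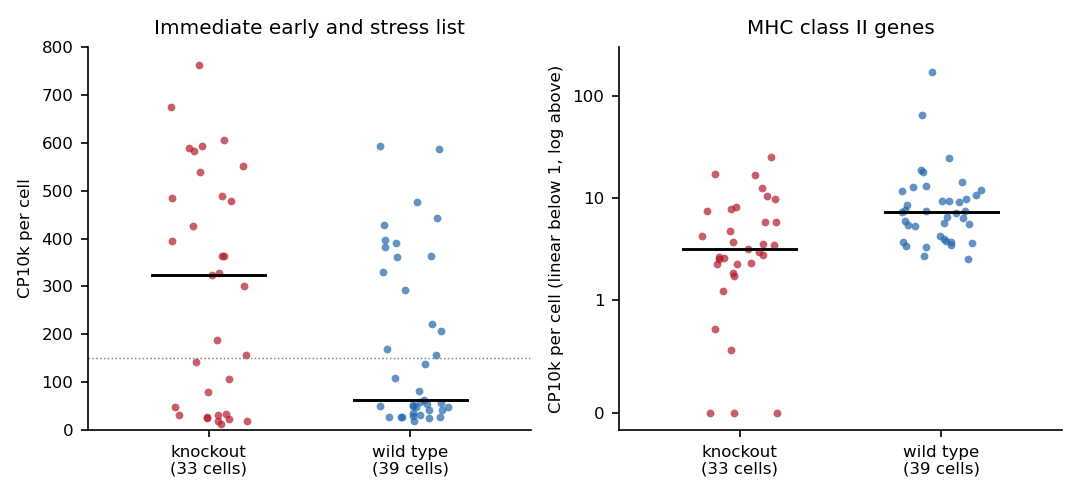
Summed level per mesothelial cell (CP10k) of immediate early and stress genes (left, dotted line at 150) and of class II antigen presentation genes (right, linear below 1 and log above), by library, with the median as a bar. The early genes spread from under 20 to over 500 CP10k in both libraries, and 1 wild-type cell lies apart in class II at 172 CP10k.

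The mesothelial genes did not follow that range: they summed to 8799 CPM above and 8775 CPM below 150 CP10k in the knockout library, and to 8683 and 9025 CPM in the wild-type library. Other programs did. NF-kB genes summed to 2914 against 548 CPM and 1921 against 787 CPM, and metallothionein and redox genes to 16100 against 6335 CPM and 13697 against 8659 CPM. Of 2159 genes outside the list, 71 stood 2-fold or more higher and 13 stood 2-fold or more lower in the cells above the limit in both libraries. Ptgs2, which makes prostaglandins, had 217 against 34.2 CPM and 226 against 13.8 CPM. Lars2, a mitochondrial leucyl-tRNA synthetase gene, went the other way with 3281 against 9289 CPM and 2036 against 7182 CPM.

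Between the libraries, on either side of 150 CP10k, a few genes and counts are given as values only. The 12 genes with the highest ratios were all 2-fold or more higher above the limit. Below it 6 of them were, and 8 were above 0. Of the 12 lowest, 11 were 2-fold or more lower on each side. The early list had a median of 0.22 above and 0.05 below, against 0.01 and 0.02 over all genes past the floor. Bdnf had log2 ratios of -3.20 (-4.94 to -1.80) above and -1.07 (-2.91 to 0.51) below, Fbxo33 1.58 and 0.31, and Nfkbia 0.86 and -0.21. Myrf had 1.18 and 1.41, while Stmn2 had 0.07 above and 1.31 below. Metallothioneins over all cells were higher in the knockout library, Mt1 at 2763 and 1700 CPM (0.70, 0.56 to 0.84). In other barcodes Mt1 stood at 4544 and 2099 CPM. The redox list of 14 had 4 higher and 1 lower (median -0.05), with Fth1, the ferritin heavy chain, at 5535 and 4676 CPM.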

How the data were processed

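Libraries were made with a Chromium Single Cell 3′ kit and Illumina sequencing, per the labels' protocols. The deposited matrices hold whole UMI counts per gene and barcode for 32285 genes. Cell Ranger 5.0.0, Seurat 4.1.1 and the build mm10 are listed by the submitters' processing notes; the reads, alignment and barcode calling were not redone. Ratios are of summed CPM without scaling, computed with Python 3.11.15, scipy 1.17.1 and scanpy 1.11.5 (Scrublet at an expected rate of 0.08), with edgeR 4.0.16 for TMM factors only. A count of 0 was read as 3 UMIs in bounds. The other barcodes were the 7999 and 13046 that passed the filter and not the gate. Pdgfra progenitors had at least 2 Pdgfra UMIs, no Msln or Upk3b UMI and less than 15 CP10k of C1q. They made up 3453 and 2019 of the other barcodes, so the make-up of the other barcodes differed between the libraries.

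The text names the 12 genes with the highest and the 12 with the lowest ratios past 50 CPM and 30 UMIs (without gate, ribosomal, mitochondrial, haemoglobin, immunoglobulin, T cell receptor and predicted genes), the 20 marking genes, the most abundant and the most different member of each list, gate genes, Wt1, Lrrn4, Muc16, Camk2d and the 5 genes most like Msln and Upk3b. One of the 12 lowest is counted but not reported here. Other list members were named after their values were seen. Members and lists were chosen with earlier results of these data known. Thinned shares in other barcodes rest on 2000 drawn per library. The scripts for ratios and intervals were tested on simulated data.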

Additional observations from a re-analysis of the deposited data

Results flagged for a closer look

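For 3 of the 12 genes with the highest ratios, the difference between the libraries ran in opposite directions in mesothelial cells and in Pdgfra progenitors, with 1 library of each genotype. These differences between cell types were not tested. Rian had a log2 ratio of 1.79 in mesothelial cells and -0.50 in progenitors. Gjb5 had 1.79 in mesothelial cells and -4.32 in progenitors, where it stood at 0.13 CPM in knockout and 2.56 CPM in wild-type cells. Fbxo33 had 1.73 in mesothelial cells and -0.19 in progenitors. Of the other 9 higher genes each was also higher in progenitors, 6 of them at least 2-fold. All 12 lower genes were lower in progenitors too, 5 of them at least 2-fold. The share of all genes that went the same way in progenitors is not given, so these counts are values only.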

How the results depend on the processing

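No paired analysis was possible because each genotype has 1 library. The share of mesothelial cells stayed within its counting interval under all 8 alternatives run, although its direction turned with a minimum of 3000 UMIs, as given above. The counts of genes at least 2-fold higher and lower were 50 and 61 of 2297. With the gate applied after thinning to 1500 UMIs they came to 29 and 29 of 526 genes. Without the top cell of each gene they were 28 and 32 of 2297. At a floor of 100 CPM they were 19 and 21 of 1376, and with no floor 1821 and 2495 of 13583. At 1.5-fold they were 250 and 191 of 2297. The mean of per-cell CPM gave 77 higher and 61 lower of 2227. Leaving out genes that were higher in other barcodes gave 36 higher and 21 lower of 1659. The thinned gate kept 8 and 12 cells. With it, Cxcl1 had a log2 ratio of -3.60 and Rian -1.85, both reversed, and 6 of the 12 lower genes came within 2-fold (-2.51 to -0.17 over the 12). These were the 2 sign changes among 312 ratios of the 24 most different genes under alternatives. Of 728 ratios of the 56 other named genes, 74 in 28 genes changed sign. In 7 of these genes the counting interval over all cells left out 0, and each turned with the thinned gate: Cdkn1a to -0.50, Dcn to -0.11, Fn1 to 0.28, Lgals7 to -0.17, Lrp2 to 0.08, Rarres2 to 0.14 and Stmn2 to -1.60. The cause of these moves was not tested. Depth limits what these 72 cells can show: a gene at 50 CPM rests on few UMIs, and a gene with no UMI may stand at up to 6.19 CPM in knockout and 8.50 CPM in wild-type cells.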

Other observations

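Genes better known from other epithelia were among the 20 marking genes of the mesothelial cells, although the gate did not use them. Lgals2 had 159 CPM in knockout and 153 CPM in wild-type cells, Ano1 had 293 and 269 CPM and Lrp2 132 and 190 CPM. Lgals7, a galectin of stratified epithelium, had 862 and 731 CPM, and Mroh2a 155 and 159 CPM. The peptidase Dpp4, often used to sort fibroblastic progenitors, had 316 and 456 CPM in mesothelial cells against 42 and 57 CPM in all other barcodes. A UMI of Dpp4 was found in 33.3% and 28.2% of the thinned mesothelial cells (87.9% and 92.3% unthinned), and in 5.65% and 7.80% of the thinned other barcodes (19.5% and 16.2% unthinned), at median depths of 11692, 7343, 9641 and 3785.5 UMIs.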
